A study of Homo sapiens with 5 samples.

Results

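Some ribosomal proteins have a second gene whose protein closely resembles them. This report concerns 6 such paralogs, RPL22L1, RPL26L1, RPL39L, RPL36AL, RPL7L1 and RPS27L, each read beside the parent gene it is named after. They were chosen by name, with earlier results of these data known. Of these 6, 4 had a row among the 13638 rows of the deposited count table, RPL22L1, RPL36AL, RPL7L1 and RPS27L. RPL26L1 and RPL39L are not analysed here. Of the 6 parent genes, RPL22, RPL26, RPL39 and RPS27 had rows of their own. RPL36A was covered by a row named RPL36A-HNRNPH2, a read-through transcript that starts in RPL36A, and RPL7 is not analysed here. Paralog and parent could therefore be set side by side in 3 pairs.

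Ribosome footprints, the stretches of mRNA that ribosomes shield from nuclease, were counted in HAP1 cells, an adherent and nearly haploid human line derived from a chronic myeloid leukaemia. There were 3 libraries from cells with a knockout of ZCCHC4 and 2 from wild-type cells. ZCCHC4 is the enzyme that places N6-methyladenosine on the 28S rRNA of the large ribosomal subunit. The labels name no allele or clone for the knockout, and they do not say whether libraries came from separate cultures, and the p-values below therefore rest on library-to-library spread that may be only technical. A footprint count follows both the amount of an mRNA and how densely ribosomes occupy it, and these were not separated.

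A ribosome carries a single copy of most of its proteins, and cells can fill some of those places with the product of either a parent gene or its paralog. RPL22 and RPL22L1 are RNA-binding proteins of the large subunit, and in mouse loss of Rpl22 raises Rpl22l1. RPL36AL is an autosomal counterpart of the X-linked RPL36A, whose protein lies near the tRNA exit site. RPS27L is a paralog of the small-subunit protein RPS27 and is known as a target of the transcription factor p53. RPL7L1 is the counterpart of yeast Rlp7, a nucleolar protein that helps to assemble the large subunit, so it is less a spare part of the ribosome than a builder of it. RPL39L is known from male germ cells in mouse, where it replaces RPL39 near the peptide exit tunnel.

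Whether footprints of a paralog can be told from those of its parent depends on how far the coding sequences differ. The sequences below show this for the RPL22 and RPS27 pairs, as 120-base stretches of coding sequence from GENCODE release 29 on GRCh38, written 5′ to 3′, with bases that differ from the partner in capitals.
RPL22L1, coding bases 168 to 287: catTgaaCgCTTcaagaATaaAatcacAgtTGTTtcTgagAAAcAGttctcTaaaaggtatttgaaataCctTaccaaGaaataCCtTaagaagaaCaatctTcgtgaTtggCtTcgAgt
RPL22, coding bases 186 to 305: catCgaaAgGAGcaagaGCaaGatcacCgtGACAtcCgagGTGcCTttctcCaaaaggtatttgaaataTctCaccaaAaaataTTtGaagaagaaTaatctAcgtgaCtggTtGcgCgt
RPS27L, coding bases 1 to 120: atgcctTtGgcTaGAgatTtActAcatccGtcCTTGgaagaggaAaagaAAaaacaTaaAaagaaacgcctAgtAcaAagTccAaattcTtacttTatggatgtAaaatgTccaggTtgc
RPS27, coding bases 1 to 120: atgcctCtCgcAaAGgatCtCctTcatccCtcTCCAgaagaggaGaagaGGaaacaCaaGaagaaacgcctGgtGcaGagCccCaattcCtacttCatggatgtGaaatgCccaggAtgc

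The RPL22 pair differed most. Over the whole coding sequence, RPL22L1 and RPL22 were identical at 68.0% of aligned bases, with a longest identical run of 17 bases, and RPS27L and RPS27 at 77.8%, with a longest run of 20. Footprints were cut at 28 to 32 nt, and no stretch of 28 bases of either paralog's coding sequence occurred in transcripts of its parent. RPL36AL and the RPL36A row were closer, at 87.1% identity with a longest run of 42 bases, and 33 of the 291 stretches of 28 bases in RPL36AL (11.3%) occurred in transcripts of RPL36A or of the read-through. Footprints on those stretches cannot be told apart.

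Other copies matter more than the partners for some rows. Stretches of 28 bases shared with transcripts of any other gene made up 20.4% of those in RPL22L1 and 15.1% in RPS27L, but 72.5% in RPL36AL and 83.3% in RPL7L1. All 26 other genes that share stretches with RPL7L1 are pseudogenes, as are 28 of the 31 that share with RPL36AL. In the parents the shares were 96.9% in RPL22 and 100% in both RPS27 and RPL39. How reads with several matches were counted is not given in the sources used here. The values of RPL22L1 and RPS27L are therefore the least exposed to such sharing, and those of RPL36AL, RPL7L1 and the parents are uncertain in level.

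Library totals were 29191146, 16940732 and 31557573 counts in the knockout and 5302160 and 4887380 in wild type, so depth and genotype moved together. ZCCHC4 itself had 3.85, 3.41 and 4.98 CPM in knockout libraries 1 to 3, against 16.0 and 13.3 CPM in the wild-type libraries, where CPM are counts scaled to library size with TMM factors. The wild-type libraries were nearly alike (chi-square per degree of freedom of 1.14), as were knockout replicates 1 and 3 (2.97), while knockout replicate 2 stood apart from them (27.7 and 24.6). Results that rest on that library are given with and without it. Blood cell markers were at or near 0 (of 7 listed, CD34 and CD33 had a row, with at most 0.373 CPM in any library), and the germ cell marker DDX4, the one of 6 with a row, had 0 to 0.690 CPM. Of 4 tested genes listed for adherent HAP1 cells, the intermediate filament gene VIM was higher (511 ± 18.8 CPM in the knockout, n = 3, and 132 ± 12.2 CPM in wild type, n = 2, both SD), BCR was lower (4.44 ± 0.154 CPM in the knockout and 6.83 ± 0.636 CPM in wild type), and KRT18 and ABL1 were not called. The part of these differences in the results below was not tested.

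Of the 4 paralogs, RPL22L1 and RPL36AL rose in the knockout libraries, RPS27L fell, and RPL7L1 did not pass the test. The 3 that passed did so in edgeR's quasi-likelihood test at an adjusted p under 0.05, a threshold that 60% of the 11205 rows tested passed. In the knockout 30.2% of all rows were called higher and 29.8% lower. A call is thus common here, and 3 of 4 is close to that background. The sizes and directions set the paralogs apart from each other more than the calls do.

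**Figure D1:**
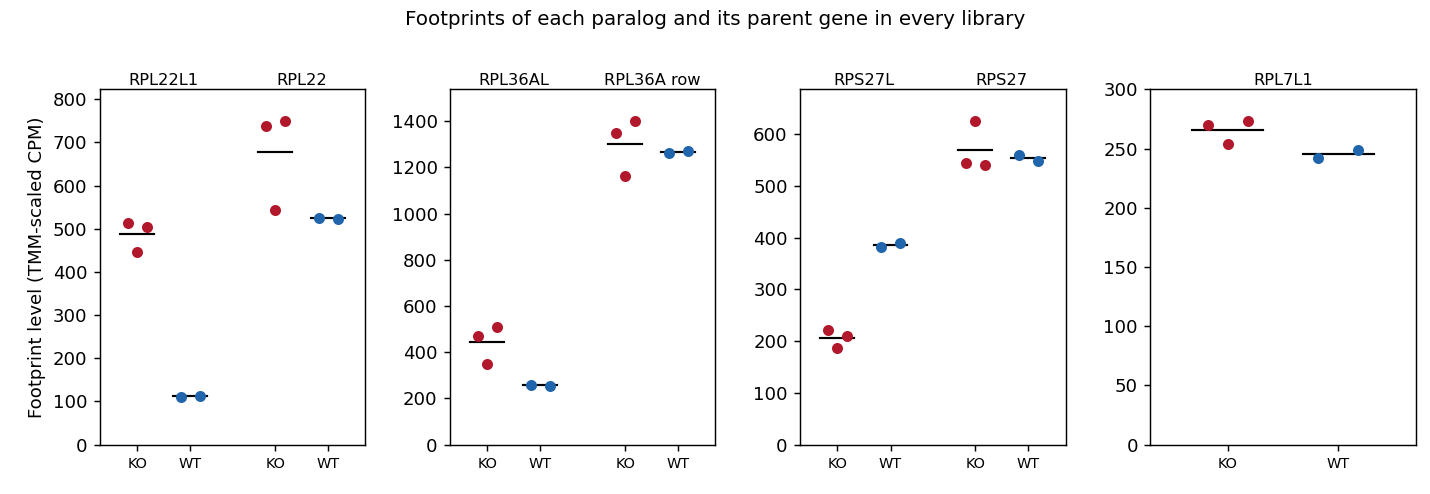
Footprint level in TMM-scaled CPM (vertical axes, starting at 0) of each paralog and its parent, with 1 point per library (red, ZCCHC4 knockout, KO, n = 3; blue, wild type, WT, n = 2) and the group mean as a line. RPL22L1 lies between 445 and 514 CPM in the knockout, against 111 and 113 CPM in wild type, whereas RPS27L lies below its wild-type values in all 3 knockout libraries.

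RPL22L1 showed the largest change of the group. It lies on GRCh38 chromosome 3 from 170864875 to 170870483 on the minus strand (ENST00000295830, ENSG00000163584, 4 exons). Its level was 514, 445 and 505 CPM in knockout libraries 1 to 3, against 111 and 113 CPM in the wild-type libraries. Each knockout library was roughly 4 times as high as either wild-type library, and the groups did not overlap, as was true of 76.4% of all rows tested (38.5% with the knockout higher and 37.9% with it lower). The mean was 488 ± 37.4 CPM in the knockout (SD, n = 3) and 112 ± 1.07 CPM in wild type (SD, n = 2), a log2 fold change of 2.12 ± 0.09 (SE; 4.36-fold), with an edgeR adjusted p of 3.24e-07. By this value RPL22L1 ranked 240th from the top among the 11205 rows. Its fold change exceeded that of every one of the 66 ribosomal protein genes tested, the highest of which, for the stalk protein RPLP1, was 2.04 on the log2 scale.

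The parent RPL22 moved much less. It had 738, 545 and 749 CPM in knockout libraries 1 to 3, against 526 and 523 CPM in the wild-type libraries. Knockout replicate 2 lay only just above wild type, and the other 2 knockout libraries lay well above it. RPL22 had a log2 fold change of 0.37 ± 0.13 (SE; edgeR adjusted p = 0.0307), or 0.50 without knockout replicate 2, and the call was lost in 9 of the 13 alternative settings, among them library totals (0.15, adjusted p = 0.304).

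Because both counts of a pair come from the same library, their ratio does not depend on how libraries are scaled. RPL22L1 had 69.7, 81.8 and 67.4% as many footprints as RPL22 in knockout libraries 1 to 3, against 21.2 and 21.6% in the wild-type libraries. Relative to RPL22, RPL22L1 was higher in the knockout by 1.77 ± 0.17 on the log2 scale (3.41-fold), with an edgeR adjusted p of 6.86e-05 in a fit in which every gene was measured against RPL22. In that fit 9.3% of all rows were called higher and 33.5% lower. The value was 1.68 without knockout replicate 2. An exact two-sided permutation test of the ratio over the 5 libraries gave p = 0.1, the smallest p that 3 against 2 libraries allow. Summed, the RPL22 pair held 1165 ± 152 CPM in the knockout (SD, n = 3) and 636 ± 1.31 CPM in wild type (SD, n = 2), a ratio of 1.83.

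Per coding length, the scale on which levels of different genes can be compared, RPL22L1 made up a larger part of its pair in the knockout. The share was 42.2, 46.2 and 41.4% in knockout libraries 1 to 3, with exact 95% binomial intervals of 41.7 to 42.8%, 45.4 to 47.0% and 40.9 to 41.9%. In the wild-type libraries it was 18.2 and 18.5%, with intervals of 16.9 to 19.5% and 17.2 to 19.8%. These intervals cover counting error only, and they treat each read as an independent molecule. Amplified reads are not independent, so the intervals are too narrow. RPL22L1 stayed below RPL22 in footprint density in all 5 libraries, with means of 1334 CPM per kb for RPL22L1 and 1764 for RPL22 in the knockout, and of 306 for RPL22L1 and 1365 for RPL22 in wild type. As most of the RPL22 coding sequence recurs in other genes, the level of RPL22 in these shares is uncertain.

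**Figure D2:**
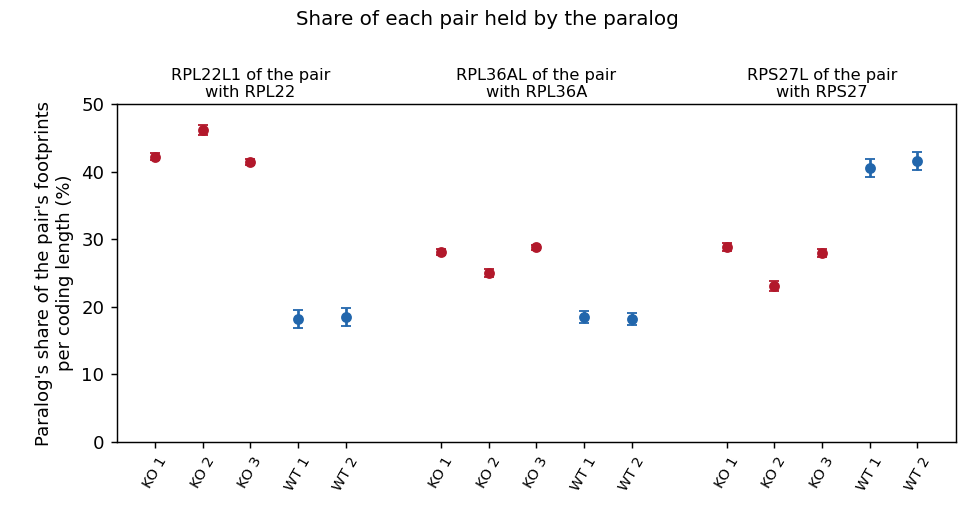
Share of each pair's footprints held by the paralog, per coding length (percent, vertical axis from 0), in each library (red, ZCCHC4 knockout 1 to 3; blue, wild type 1 and 2), with exact 95% binomial intervals of the counts as bars. The RPL22L1 share is 41.4 to 46.2% in the knockout and 18.2 to 18.5% in wild type, and the RPS27L share runs the other way, at 23.1 to 28.8% in the knockout and 40.5 to 41.5% in wild type.

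RPL36AL, the paralog of RPL36A, also rose. It lies on chromosome 14 from 49618519 to 49620685 on the minus strand (ENST00000298289, ENSG00000165502, 2 exons). It had 472, 348 and 508 CPM in knockout libraries 1 to 3, against 257 and 254 CPM in the wild-type libraries. All knockout libraries lay above wild type, with replicate 2 the lowest of them at 71.0% of the mean of the other 2. The log2 fold change was 0.79 ± 0.14 (SE; 1.73-fold; edgeR adjusted p = 0.00122), and 0.94 without knockout replicate 2.

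The RPL36A row had 1347, 1163 and 1400 CPM in knockout libraries 1 to 3, against 1262 and 1273 CPM in the wild-type libraries. The groups overlapped, and the log2 fold change was 0.04 ± 0.08 (95% interval -0.14 to 0.22; edgeR adjusted p = 0.685). Without knockout replicate 2 it was called, at 0.12 (adjusted p = 5.14e-04). RPL36AL had 35.1, 29.9 and 36.3% as many footprints as that row in knockout libraries 1 to 3, against 20.4 and 19.997% in the wild-type libraries. Relative to that row, RPL36AL was higher by 0.74 ± 0.11 on the log2 scale (1.67-fold; edgeR adjusted p = 5.64e-04; exact permutation p = 0.1), and by 0.82 without knockout replicate 2. In this fit 52.7% of all rows were called, with 24.9% higher and 27.9% lower, and the call was lost when wild-type libraries 1 and 2 and knockout libraries 1 and 3, the most alike, were summed (adjusted p = 0.0502). The share of RPL36AL per coding length was 28.1, 25.001 and 28.8% in the knockout libraries, against 18.5 and 18.2% in the wild-type libraries. The coding length used for the RPL36A row, 354 bases, is that of the read-through.

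RPS27L went the other way. It lies on chromosome 15 from 63148250 to 63157802 on the minus strand (ENST00000330964, ENSG00000185088, 4 exons). It had 221, 187 and 209 CPM in knockout libraries 1 to 3, against 382 and 390 CPM in the wild-type libraries. Every knockout library was far below both wild-type libraries. The mean was 206 ± 16.9 CPM in the knockout (SD, n = 3) and 386 ± 5.87 CPM in wild type (SD, n = 2), a log2 fold change of -0.91 ± 0.08 (SE; 1.88-fold lower), with an edgeR adjusted p of 2.18e-05. None of the 66 ribosomal protein genes tested had a lower fold change, the lowest being -0.40 for RPL35 of the large subunit.

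Its parent RPS27 had 545, 625 and 540 CPM in knockout libraries 1 to 3, against 560 and 549 CPM in the wild-type libraries. The groups overlapped, and only knockout replicate 2 lay above wild type. The log2 fold change was 0.04 ± 0.08 (95% interval -0.14 to 0.22; edgeR adjusted p = 0.685), a sign that turned without knockout replicate 2 (-0.03) and with library totals (-0.18). RPS27L had 40.5, 29.990 and 38.7% as many footprints as RPS27 in knockout libraries 1 to 3, against 68.2 and 71.1% in the wild-type libraries. Relative to RPS27 it was lower by 0.94 ± 0.14 on the log2 scale in the knockout (1.91-fold), with an edgeR adjusted p of 7.03e-04 (28.3% of all rows were called lower in this fit) and an exact permutation p of 0.1. Without knockout replicate 2 the log2 value was -0.81. The share of RPS27L per coding length was 28.8, 23.1 and 27.9% in the knockout libraries and 40.5 and 41.5% in the wild-type libraries. The pair's sum was 776 ± 32.8 CPM in the knockout (SD, n = 3) and 941 ± 1.79 CPM in wild type (SD, n = 2).

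Because RPS27L is known as a p53 target, other targets of p53 were read beside it. Of 29 tested targets on a list that leaves RPS27L out, 22 were lower, 2 higher and 5 not called. Their median log2 fold change was -1.18, against 0.02 over all rows tested. Of all rows, 29.8% were called lower and 30.2% higher. TP53I3, a p53-induced oxidoreductase, had the largest value at 1.66 (21.6 ± 1.61 CPM in the knockout, n = 3, and 6.82 ± 0.128 CPM in wild type, n = 2, both SD). TP53INP1, a p53-induced nuclear protein, had no count in any knockout library and 16.6 ± 0.468 CPM in wild type (SD, n = 2), so it was at least 403-fold lower against a floor of 3 counts over the knockout group. At -0.91, the log2 fold change of RPS27L lay above the median of this list. The part of p53 in the change of RPS27L was not tested.

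**Figure D3:**
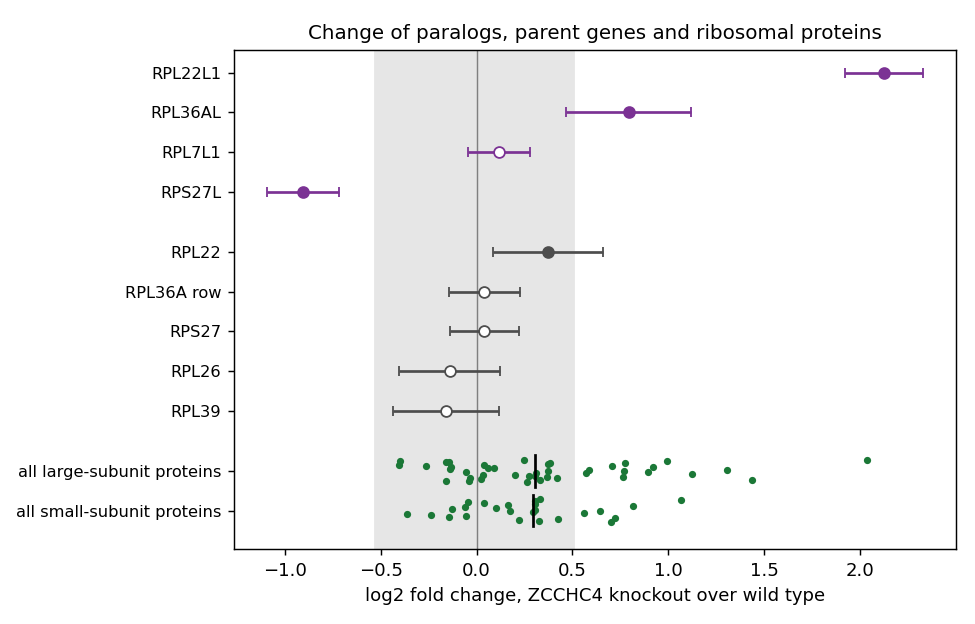
Log2 fold change, ZCCHC4 knockout over wild type, of the paralogs (purple) and parent genes (dark grey) with 95% intervals, filled where the edgeR adjusted p is under 0.05, and of the ribosomal protein genes tested (green points; black bars mark the medians, 0.30 and 0.29). The shaded band runs between the quartiles of all 11205 rows, -0.53 and 0.51. RPL22L1 and RPS27L lie beyond the ends of the green points, though the interval of RPL22L1 takes in the highest of them. Of the parents RPL22 alone is filled, at 0.37.

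RPL7L1 was nearly level. It lies on chromosome 6 from 42879635 to 42889896 on the plus strand (ENST00000493763, ENSG00000146223, 6 exons). It had 270, 254 and 273 CPM in knockout libraries 1 to 3, against 242 and 249 CPM in the wild-type libraries. The knockout libraries were slightly higher without overlap. The log2 fold change was 0.12 ± 0.07 (95% interval -0.05 to 0.28; edgeR adjusted p = 0.193). Without knockout replicate 2 it was called, at 0.15 (adjusted p = 0.00203), and with library totals the sign turned to -0.10, so neither a direction nor a lack of change is shown.

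As RPL7L1 belongs to the assembly machinery, a list of other large-subunit assembly factors was read beside it. Of 54 tested, 27 were higher, 11 lower and 16 not called. The median of their log2 fold changes was 0.28. Over all rows tested, 30.2% were called higher and 29.8% lower. CEBPZ, a nucleolar factor of early large-subunit assembly, had the largest value at 1.35 ± 0.12 (SE), with 217 ± 29.4 CPM in the knockout (SD, n = 3) and 85.2 ± 4.13 CPM in wild type (SD, n = 2). PPAN, the counterpart of yeast Ssf1, had the smallest at -0.78 ± 0.18 (SE), with 4.99 ± 0.375 CPM in the knockout (SD, n = 3) and 8.59 ± 0.534 CPM in wild type (SD, n = 2). The value of RPL7L1 lay below the median of this list.

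The parents whose paralogs are not analysed here showed no call. RPL26, which binds 28S rRNA near the peptide exit tunnel, had 1537, 1137 and 1513 CPM in knockout libraries 1 to 3, against 1541 and 1537 CPM in the wild-type libraries. RPL39, a short protein that lines that tunnel, had 1052, 757 and 1001 CPM in the knockout libraries, against 1035 and 1055 CPM in the wild-type libraries. In both genes knockout replicate 2 was the low library, and their log2 fold changes were -0.14 ± 0.12 and -0.16 ± 0.12 (SE; edgeR adjusted p = 0.322 and 0.290). Without knockout replicate 2 the values were -0.013 and -0.026 (edgeR adjusted p = 0.689 and 0.459). With library totals both were called lower, at -0.36 and -0.38. Of the 5 parent rows, RPL22 alone was called, against 60% of all rows.

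Other paralogs named like a ribosomal protein were read from a list of 2. RPL10L, an intronless copy of RPL10 known from the testis, had 84, 35 and 64 counts in knockout libraries 1 to 3, against 1 and 2 counts in the wild-type libraries. The row passed the count filter through its knockout counts alone, so its edgeR call (adjusted p = 0.00125) is no separate support for a rise. The ratio of its scaled counts was 9.33, with an exact 95% binomial interval of 3.14 to 45.6 that covers counting error only. The sequence that RPL10L shares with RPL10 was not measured here. Even in the knockout it stayed at 2.47 ± 0.526 CPM (SD, n = 3), beside 2984 ± 201 CPM for RPL10, which had 2232 ± 37.5 CPM in wild type (SD, n = 2). RPL3L, a muscle counterpart of RPL3, had a single count in all 5 libraries.

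Set in order by footprint density, CPM per kilobase of coding sequence, the paralogs changed places between the genotypes. In the knockout RPL36AL was at 1393 ± 264, RPL22L1 at 1334 ± 102, RPS27L at 817 ± 67.1 and RPL7L1 at 347 ± 13.4 CPM per kb (SD, n = 3). In wild type RPS27L was at 1532 ± 23.3, RPL36AL at 805 ± 6.43, RPL7L1 at 321 ± 6.83 and RPL22L1 at 306 ± 2.91 CPM per kb (SD, n = 2). RPL36AL and RPL22L1 did not differ beyond their spread in the knockout, and all other neighbours in these orders did not overlap between libraries. In wild type, however, RPL7L1 (316 and 326 CPM per kb) and RPL22L1 (304 and 308 CPM per kb) lay close together. As the level of RPL7L1 is uncertain, 2 libraries do not settle the order of these 2 paralogs.

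The paralogs were less densely covered than most ribosomal protein genes, whose median density was 2721 CPM per kb in the knockout and 2247 CPM per kb in wild type. Of the 66 ribosomal protein genes tested, 2 lay below RPL22L1 in the knockout and 1 in wild type. For RPS27L the counts were 2 in the knockout and 15 in wild type, and for RPL36AL 2 in each genotype. RPL7L1 had 1 gene below it in each genotype. For the parents, 52 of the other 65 genes lay below the RPL36A row in the knockout and 57 in wild type. RPL22 stood lower, above 8 genes in the knockout and 10 in wild type.

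**Figure D4:**
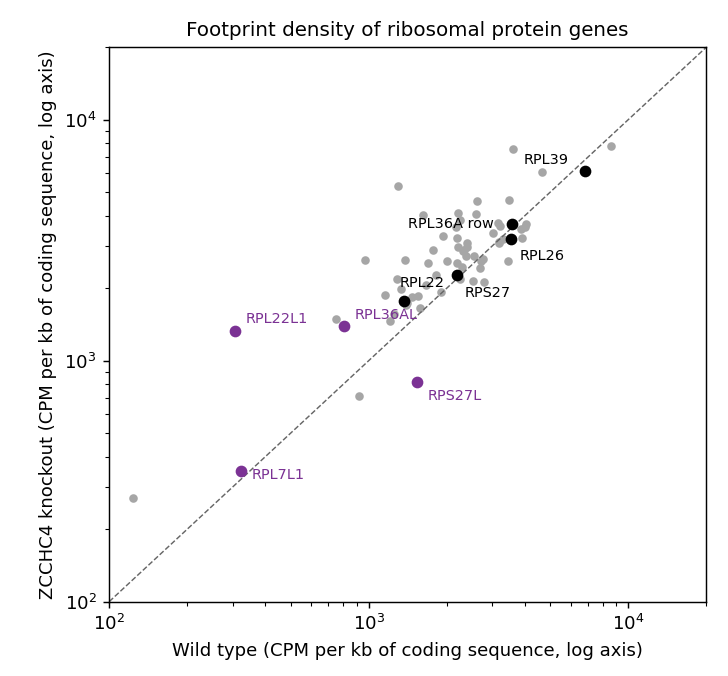
Mean footprint density (CPM per kb of coding sequence, log axes) in the ZCCHC4 knockout (vertical, n = 3) against wild type (horizontal, n = 2) for ribosomal protein genes (grey), the parent genes (black) and the paralogs (purple), with equality as a dashed line. RPL22L1 lies far above the line at 1334 and 306 CPM per kb, RPS27L below it at 817 and 1532 CPM per kb, and RPL7L1 close to it.

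The tested ribosomal protein genes give a frame for these changes. RPS9 had a row that was not tested, with at most 0.293 CPM in any library. No coding length was matched to that row, so its level may not stand for the gene. The other listed genes that were not tested had no row under their name. Over all rows tested, 30.2% were called higher and 29.8% lower. Of 47 large-subunit genes listed, 41 were tested, and 25 were higher, 4 lower and 12 not called. Their log2 fold changes had a median of 0.30. Of 32 small-subunit genes listed, 25 were tested, and 14 were higher, 2 lower and 9 not called. Their median was 0.29, and the extremes were RPS29 at 1.06 ± 0.07 and RPS10 at -0.36 ± 0.07 (SE). RPL36AL exceeded 57 of the 66 genes in fold change, RPL7L1 exceeded 25, and the parent RPL22 exceeded 42 of the other 65.

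The start of the transcript differed within the RPL36A and RPS27 pairs more than within the RPL22 pair. mRNAs of ribosomal proteins typically begin with a C followed by further C or T bases, the terminal oligopyrimidine tract through which mTOR signalling controls their translation. At the transcript starts given by RefSeq on GRCh38.p14, RPL22 and RPS27 each began with C and an unbroken run of 7 C or T bases, RPL26 with a run of 12, RPL36A with 10 and RPL39 with 19. RPL22L1 began with C and a run of 6, and RPL36AL with C and a run of 3, whereas RPS27L, RPL7L1 and RPL26L1 began with a purine. A C start with a run of at least 5 was found at 60.3% of the 78 annotated starts of ribosomal protein genes and at 4.07% of all 35116 starts. This describes single annotated positions, which were not checked against the libraries.

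Tested genes around the paralogs moved in both directions. For comparison with the counts below, 30.2% of all rows tested were called higher and 29.8% lower. Whether position has a part in these changes was not tested. Of 9 other genes tested within 1 Mb of the RPL22L1 start, 1 was higher and 5 were lower, with a median log2 fold change of -0.47. Its nearest tested neighbours on either side were the translation factor gene EIF5A2 (0.05 ± 0.15, SE) and the claudin gene CLDN11 (-3.77 ± 0.46). The CLDN11 start lay 451618 bp from that of RPL22L1. CLDN11 had only 0.144 ± 0.039 CPM in the knockout and 1.98 ± 0.11 CPM in wild type (both SD). The CLDN11 row passed the count filter through its wild-type counts alone. Its call, among the 5 lower, is therefore no separate support for a fall. Near RPS27L, 5 of 9 genes were higher and 2 lower, with a median of 0.50. Its nearest neighbours were LACTB, a mitochondrial protease, at 0.71 ± 0.14 and RAB8B, a small GTPase of membrane traffic, at -0.30 ± 0.15. Near RPL7L1, 11 of 37 genes were higher and 12 lower, and the tubulin cofactor gene TBCC beside it was at 0.71 ± 0.11, while C6orf226 on the other side did not pass (0.84 ± 0.36, edgeR adjusted p = 0.0710).

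RPL36AL has a close neighbour. Its annotated start lies 110 bp from that of MGAT2, an enzyme of N-glycan synthesis transcribed in the opposite direction, and MGAT2 was higher too, at 29.9 ± 1.27 CPM in the knockout (SD, n = 3) and 19.2 ± 4.24 CPM in wild type (SD, n = 2), a log2 fold change of 0.64 ± 0.14 (SE; edgeR adjusted p = 0.00386). On the other side LRR1, part of a ubiquitin ligase that acts at the end of DNA replication, was at 1.08 ± 0.10. Of the 14 genes tested within 1 Mb of RPL36AL, 6 were higher and 3 lower, beside 30.2% and 29.8% of all rows tested.

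Genes of similar level whose pattern over the 5 libraries lay nearest to each paralog were found by the Euclidean distance between centred log2 CPM. For RPL22L1 they were HSPE1, a mitochondrial co-chaperone (distance 0.114; 568 CPM in the knockout and 139 CPM in wild type on average), and MYL6, a myosin light chain (0.125; 948 and 224 CPM), out of 954 genes. For RPL36AL they were DNAJA1, an HSP70 co-chaperone (0.0773), and SERF2 (0.0987), out of 887. For RPL7L1 they were GLYR1, a nucleosome-binding protein (0.0216), and STAU1, a protein that binds double-stranded RNA (0.0375), out of 1282. For RPS27L they were VPS13C, a lipid transfer protein (0.102; 316 CPM in the knockout and 561 CPM in wild type), and NCOR1, a transcriptional corepressor (0.113; 103 and 199 CPM), out of 1194. With 5 libraries in 2 groups, likeness of this kind is set mostly by the difference between genotypes.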

How the data were processed

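Ribosome-protected fragments of 28 to 32 nt were sequenced, per the labels' protocols, from lysates with cycloheximide digested with RNase I and run on sucrose gradients. The labels' molecule field names polyA RNA. The submitters' processing notes name Bowtie (version not given) and hg38. The counting tool, duplicate removal, strand and treatment of reads with several matches are not stated in any source used here. The deposited table holds raw counts per transcript, not normalized, per the file headers and values, and its header is shifted by 1 cell.

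Counts were fitted in R 4.3.3 with edgeR 4.0.16 (glmQLFit and glmQLFTest on TMM-scaled libraries, rows kept by filterByExpr at a minimum of 10 counts, genotype as the only term, Benjamini-Hochberg over all 11205 rows kept). All 4 paralog rows and 5 parent rows passed the filter. The SE is the size of the log2 fold change over the square root of F. For pairs, each library was scaled to its parent gene's count in place of TMM. DESeq2 1.42.0, other scalings and filters, left-out libraries, a replicate block and summed near-identical libraries were alternatives. Annotation came from GENCODE 29, which matched 13533 of the 13638 rows. On simulated data the fit recovered 1 of 50 genes changed 1.25-fold, 27 of 50 changed 1.5-fold, 38 of 50 changed 2-fold and 46 of 50 changed 4-fold. It made 5 false calls there. Far fewer genes were changed there than were called in the data, and the adjusted p depends on that number. The recovered shares are therefore not the shares found in these data. A row that was not called may still have changed. Genes named besides the members were the extremes among called members of each list, the nearest tested neighbours and the 2 nearest patterns. KRT18, ABL1, DDX4, CD34 and CD33 come from the marker lists and were chosen after their values were seen. Members and lists were chosen with earlier results of these data known. Sequences of the RPL36A pair are not reported here.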

Additional observations from a re-analysis of the deposited data

How the results depend on the processing

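The log2 fold changes of RPL22L1 (1.90 to 2.19 over 13 alternatives), RPL36AL (0.57 to 0.94) and RPS27L (-1.13 to -0.85) kept direction and call in these alternatives. In 3 of the 13, the summed libraries and those without a wild-type library, wild type is 1 sample, which is assumed to vary like the knockout, so their p-values add little. RPL7L1 turned to -0.10 with library totals and was called at 0.15 without knockout replicate 2 (left-out libraries gave 0.090 to 0.15), so 2 to 3 paralogs were called higher when a library was left out. Library totals shift the median of all rows to -0.20, against 0.02. RPL22 lost its call with library totals (0.15), the upper quartile (0.30), a filter at a mean of 50 counts (0.30), summed libraries (0.31) and the replicate block (0.27), and ranged from 0.29 to 0.50 with a library left out. The number of parents called higher was 0 in each of these and ranged from 0 to 2 with a library left out. With library totals RPL26 (-0.36) and RPL39 (-0.38) were called, so 2 parents were called lower. The RPL36A row turned to -0.18 with library totals, -0.024 with the upper quartile, -0.031 with that filter and -0.018 with the replicate block, and left-out libraries gave -0.019 to 0.12. RPS27 turned to -0.18, -0.022 and -0.032 under the first 3 of these, with -0.033 to 0.072 for left-out libraries. Relative to the parent, the log2 changes kept their direction: the exact permutation test, which cannot go under p = 0.1, gave differences of 1.77, 0.74 and -0.95 for RPL22L1, RPL36AL and RPS27L. Summed libraries gave 0.70 for RPL36AL (adjusted p = 0.0502). Left-out libraries gave 1.68 to 1.83, 0.69 to 0.82 and -1.02 to -0.81. Without length correction the mean RPL36AL share was 25.2% in the knockout and 16.8% in wild type, and the RPL22L1 share 17.6% in wild type. Same-numbered libraries share only a number, and the replicate block gave 6094 calls over all rows, against 6721. The causes of these differences were not tested. Wild-type depth limits RPL10L, which had 3 counts there in all.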
